A study of Mus musculus with 18 samples.

Results

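The comparison sets 2 *Atrx* knockout (KO) clones of C3H/10T1/2 cells against each other. C3H/10T1/2 (CCL-226) is a mouse mesenchymal progenitor cell (MPC) line. The sg5 KO is clone G7 and the sg6 KO is clone B10, each named for the sgRNA that cut *Atrx* and each grown from a single sorted cell. The members were the polyA-selected RNA-seq libraries of these clones, 3 for sg5 and 3 for sg6, which are 6 of the 18 libraries of the series. The 3 polyA libraries of WT cells, which had received Cas9 from a vector lacking an sgRNA, gave the reference level. All lines were kept in growth medium with serum, and no drug or differentiation cue was given. Of 22982 autosomal genes listed in the table, 14932 had enough counts to be tested, and genes on the sex chromosomes were left out of every count. The workflow given for the lines names the empty-vector control beside the single-cell seeding, so WT may be a clone with a history of its own, and above or below WT does not show which line changed. With 1 clone for each sgRNA, the effect of the guide and the history of the clone cannot be told apart. The labels do not say whether the 3 libraries of a line came from separate cultures, so the p-values measure only the spread between these libraries.

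ATRX is a chromatin remodeller that, with its partner DAXX, places the histone variant H3.3 in heterochromatin at telomeres and repeats. MPCs can give rise to fat, bone, cartilage and smooth muscle. Cells cloned from a single culture are known to carry heritable differences in gene activity and karyotype, and genes such as the clustered protocadherins and imprinted genes are well known for states that are passed on through cell division.

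The targeted gene was below WT in both clones and was not called between them. *Atrx* was at 138, 114 and 129 CPM (counts per 1000000 counts of the TMM-scaled library) in sg5, at 122, 129 and 141 CPM in sg6 and at 276, 297 and 328 CPM in WT, and the log2 fold change of sg5 over sg6 was -0.04 ± 0.10 (SE; edgeR adjusted p = 0.902). Totals of the deposited estimated counts were higher in sg5 (161036799 to 235346363) than in sg6 (58918732 to 71896907) and WT (27544833 to 80772108). Most of them exceed the average of paired reads per sample that the paper gives, and the reason was not tested. Floors and counting intervals below take the deposited counts as reads. A repeat with every library thinned to the smallest total is given with the other settings. Of 23 mesenchymal progenitor markers tested, 1 was higher in sg5 (*Mcam*, 2.12 on the log2 scale, edgeR adjusted p = 0.0219) and 1 was lower (*Thy1*). Each is 4.35% of the list, while 1.31% of all genes tested were higher and 1.22% lower. *Pdgfra*, *Pdgfrb*, *Prrx1*, *Cd44* and *Itgb1* were abundant in all 3 lines and not called. The *Mcam* call held only without any 1 WT library or sg5 replicate 3 (adjusted p up to 0.0846). *Nt5e*, another surface marker of such cells, was near 0 in every line (0.231 ± 0.146 CPM in WT, 0.221 ± 0.0722 CPM in sg5, 0.137 ± 0.0784 CPM for sg6; SD, n = 3). Among markers of other cell types, the summed level of 10 epithelial genes was at most 1.81 CPM in a sg5 and 1.11 CPM in a sg6 library, and that of 10 endothelial genes lay between 24.3 and 28.6 CPM in sg5 and between 15.6 and 21.1 CPM in sg6. The 10 myeloid genes summed to 16.3 to 19.9 CPM in sg5 and 18.3 to 20.4 CPM in sg6, and 9 neural genes to 120 to 168 CPM in sg5 and 132 to 179 CPM in sg6. *Adgre1*, *Cldn5* and *Sox2*, of the myeloid, endothelial and neural lists, had no read in any polyA library. Each was the only member of its list without a read. In these lists 7 of 10, 7 of 10 and 5 of 9 genes had enough counts to be tested, and 3 of 10 in the epithelial list. In bulk RNA, fewer cells with a transcript and less transcript per cell cannot be told apart.

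The clones differed in 378 autosomal genes, of which 196 were higher in sg5 and 182 were lower. A gene was called when its log2 fold change was beyond 1 and its adjusted p below 0.05 in edgeR's quasi-likelihood test. This was 2.53% of the genes tested (1.31% higher and 1.22% lower), against 9.99% for sg5 versus WT (3.2% higher and 6.78% lower) and 11% for sg6 versus WT (3.7% higher and 7.28% lower). The median absolute log2 fold change of the 378 genes was 1.76, and 156 genes passed a log2 fold change of 2, 69 of them higher and 87 lower in sg5. In all 378 genes the 3 sg5 libraries and the 3 sg6 libraries did not overlap, which was so for 25.4% of all autosomal genes tested. The called genes were expressed at a lower level than most, with a median average level of 1.31 log2 CPM against 4.35 for all genes tested. By annotation, 351 called genes were protein coding and 21 were long non-coding RNAs, which is 2.57% and 2.15% of the genes tested of each kind. Leaving out a single library kept 257 to 367 of the 378 calls, and 229 passed in all 9 such fits.

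**Figure D1:**
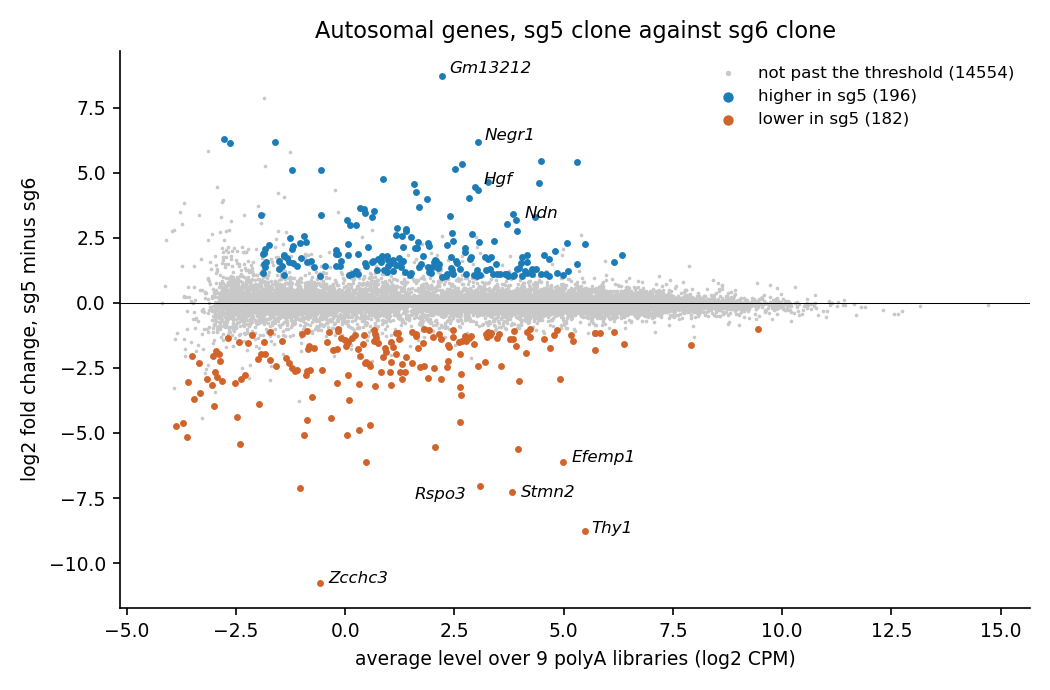
Each point is an autosomal gene, placed by its average level over the 9 polyA libraries (x axis, log2 CPM) and its log2 fold change of sg5 over sg6 (y axis). The 196 genes higher in sg5 and the 182 lower are coloured, and those with the widest difference, such as *Gm13212* and *Thy1*, lie at low to middle average levels.

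The WT level placed each difference relative to the control line. Of the 378 genes, 126 (33.3%) passed the threshold against WT in sg6 alone and 78 (20.6%) in sg5 alone. Both clones passed against WT in the same direction, but at different levels, for 114 genes (30.2%), and in opposite directions for 15 (3.97%), while neither clone passed for 45 (11.9%). WT lay nearer to sg5 than to sg6 for 240 genes (63.5%) and nearer to sg6 for 138. Among genes higher in sg5, WT lay above both clones for 94, between them for 76 and below both for 26. Among genes lower in sg5, WT lay below both for 61, between them for 68 and above both for 53. These counts describe the pattern and carry no test of their own, because each gene was chosen by a contrast that uses the same libraries.

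**Figure D2:**
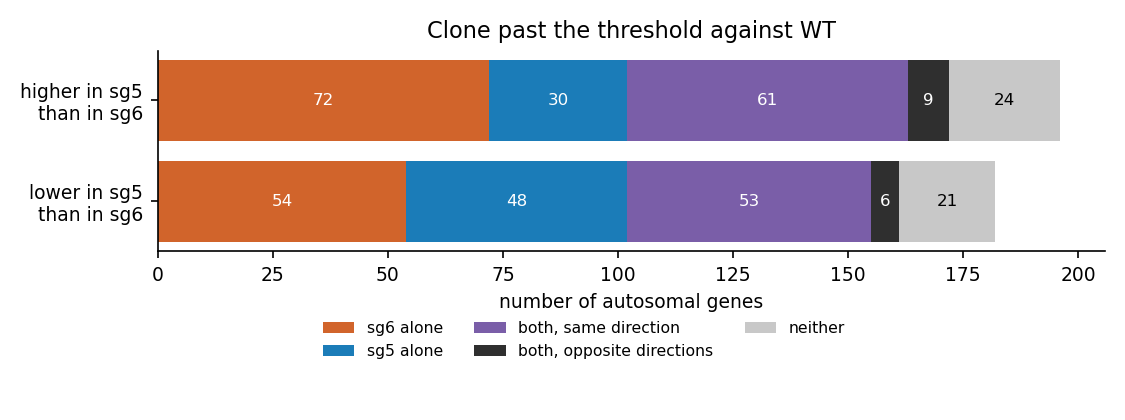
Bars count the autosomal genes called between the clones (x axis) by the clone that passed the threshold against WT. Among genes higher in sg5, 72 passed in sg6 alone and 30 in sg5 alone, and among genes lower in sg5 the counts were 54 and 48.

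Among genes with an average of at least 1 log2 CPM, *Thy1* and *Stmn2* were the furthest below sg6 in sg5. *Thy1*, a GPI-anchored glycoprotein of fibroblasts and mesenchymal cells, was at 154, 128 and 119 CPM in the 3 sg6 libraries, at 0.246, 0.305 and 0.370 CPM in sg5 and at 0.803, 1.1 and 1.09 CPM in WT. Every sg6 library was far above all others, and sg5 lay below WT as well. The log2 fold change of sg5 over sg6 was -8.76 ± 0.20 (edgeR adjusted p = 3.29e-08). *Stmn2*, a microtubule-destabilising protein best known from neurons, was at 23, 54.1 and 48.7 CPM in sg6 and at no more than 0.327 CPM in any sg5 or WT library (-7.26 ± 0.42, edgeR adjusted p = 1.75e-05). *Perp*, a p53 target and membrane protein of cell junctions, ran from 33.9 to 54.4 CPM in sg6 and from 0.537 to 1.15 CPM in sg5, above 0.0890 to 0.419 CPM in WT. *Pdlim1*, an actin-associated adaptor, was at 12.1, 12.4 and 10.8 CPM in sg6, at 0.215, 0.284 and 0.253 CPM in sg5 and at 0.629, 0.767 and 0.356 CPM in WT. For all 4 genes every sg6 library stood above every WT library by more than 10 CPM. In sg5, *Thy1* and *Pdlim1* were called lower than WT, *Perp* was called higher, and *Stmn2* was not called.

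The genes highest in sg5 were mostly genes that WT also expressed and that were far lower in sg6. *Negr1*, a GPI-anchored adhesion molecule, was at 5.81, 4.91 and 5.71 CPM in sg5, at 0.0888, 0.0321 and 0.107 CPM in sg6 and at 16.4, 19.4 and 23 CPM in WT (log2 fold change 6.16 ± 0.28, edgeR adjusted p = 5.69e-06). *Cd302*, a C-type lectin receptor, was at 10.1, 9.34 and 9.46 CPM in sg5 and at 7.37, 6.97 and 6.80 CPM in WT, but at 0.222, 0.321 and 0.284 CPM in sg6. *Thsd7a*, a membrane protein with thrombospondin repeats, was at 14.6 to 19 CPM in sg5 against 0.621 to 0.835 CPM in sg6, with WT at 7.06 to 14.4 CPM. In each of these the sg6 libraries were below every WT library. *Pcsk6*, a proprotein convertase that matures TGF-beta family ligands, departed from this pattern, since sg5 alone differed from WT: it was at 14.8, 23 and 14.9 CPM in sg5, against 1.92, 0.691 and 0.604 CPM in sg6 and 3.14, 1.84 and 1 CPM in WT.

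**Figure D3:**
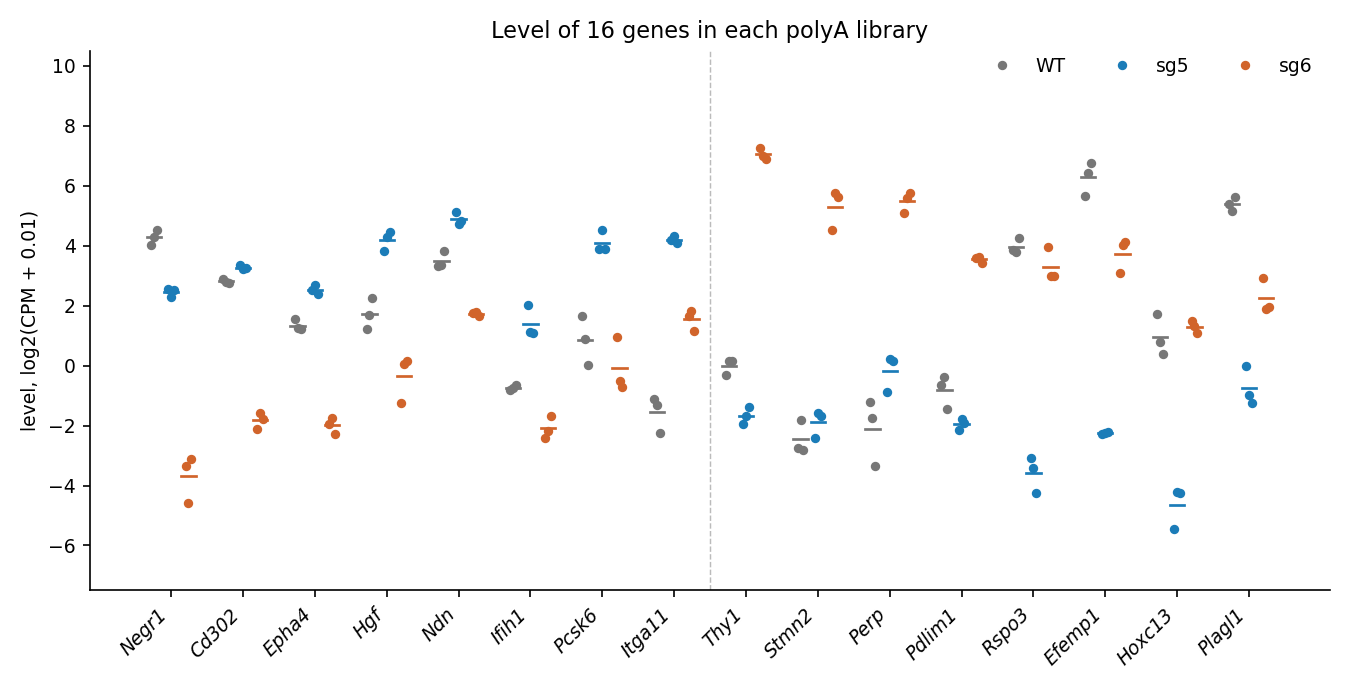
Each point is the level of a gene in 1 polyA library, as log2 of CPM plus 0.01, with a bar at the mean of the 3 libraries of WT, sg5 or sg6. The 8 genes left of the dashed line were higher in sg5 and the 8 on the right were lower. The clones were called on opposite sides of WT for *Epha4*, *Hgf*, *Ndn*, *Ifih1*, *Thy1* and *Pdlim1*. The mean of WT also lay between the clones for *Cd302*, *Pcsk6* and *Hoxc13*. It was above both for *Negr1*, *Rspo3*, *Efemp1* and *Plagl1*, and below both for *Itga11*, *Stmn2* and *Perp*.

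Growth factors and receptors of developmental signalling differed singly rather than as pathways. *Hgf*, the ligand of the MET receptor, was at 14.0, 19.3 and 22.1 CPM in sg5, at 0.414, 1.03 and 1.1 CPM in sg6 and at 2.34, 3.23 and 4.74 CPM in WT, so that the clones lay on opposite sides of WT (log2 fold change between the clones 4.46 ± 0.39, edgeR adjusted p = 0.000221). *Rspo3*, a secreted protein that amplifies Wnt signals, was near 0 in sg5: it was at 0.107, 0.0829 and 0.0432 CPM there, at 15.4, 7.86 and 7.85 CPM in sg6 and at 14.5, 13.7 and 18.9 CPM in WT. Of 45 Wnt pathway genes tested, *Rspo3* and the receptor *Fzd6* were lower in sg5 (4.44%) and the secreted modulator *Sfrp2* was higher (2.22%). Of all genes tested, 1.22% were lower and 1.31% higher. The median log2 fold change over the list was 0.03. The *Sfrp2* call was lost without sg6 replicate 2 or 3 (adjusted p up to 0.0996). Of 22 Notch pathway genes, the ligand *Dll1* and its non-canonical relative *Dlk1* were higher in sg5 and none was lower. This was 9.09% of the list, beside 1.31% of all genes tested. *Fgfr2*, an FGF receptor, was higher in sg5 (44.4, 24.8 and 25.8 CPM against 12.1, 5.30 and 6.45 CPM in sg6), with WT at 39.0 to 52.0 CPM. No member was called among 62 TGF-beta and BMP pathway genes (median -0.05) or 16 IGF pathway genes (median -0.01).

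Among axon guidance and cadherin genes, the few calls were mostly higher in sg5. Of 65 guidance genes tested, 4 were higher and 1 was lower, which is 6.15% and 1.54% beside 1.31% and 1.22% of all genes tested. Of the 65, 34 had a negative log2 fold change, and the median was -0.02 in polyA and 0.27 in rRNA-depleted libraries. *Epha4*, an ephrin receptor, was at 5.76, 6.45 and 5.19 CPM in sg5, at 0.252, 0.289 and 0.195 CPM in sg6 and at 2.90, 2.37 and 2.31 CPM in WT, again with the clones on opposite sides of WT (4.55 ± 0.21, edgeR adjusted p = 5.69e-06). The Slit receptor *Robo1*, the ephrin ligand *Efna3* and the semaphorin *Sema6a* were also higher in sg5 by 2.37, 1.56 and 1.31 on the log2 scale, and in all 3 the mean of WT was above both clones. *Sema3d* was the member lower in sg5, a call that held only without WT replicate 1 or 3 or sg6 replicate 3 (adjusted p up to 0.141). Of 41 clustered protocadherins, adhesion molecules that cells choose from a gene array, 3 were higher in sg5 (7.32%, beside 1.31% of all genes tested) and none was lower. The median of the list was -0.03 in polyA and 0.68 in rRNA-depleted libraries, where that of all genes tested in both was 0.05. *Pcdhgb1* was at 4.98, 4.86 and 5.79 CPM in sg5, compared with 0.725, 0.884 and 0.693 CPM in sg6 and 0.629, 1.08 and 2.42 CPM in WT, whereas *Pcdhb16* was at 28.7 to 39.9 CPM in sg5 and 33.4 to 41.1 CPM in WT and at 12.9 to 18.2 CPM in sg6. *Pcdhb14* was the third. Of 31 other cadherins, 4 were higher (*Cdh26*, *Cdh1*, *Cdhr1* and *Pcdh9*), which is 12.9% beside 1.31% of all genes tested, and none was lower. In rRNA-depleted libraries *Cdh1* was at -0.64 on the log2 scale and was not called. Only *Cdh26* kept its polyA call without each library in turn. For *Cdh1*, *Cdhr1* and *Pcdh9* the adjusted p rose to 0.141, 0.0783 and 0.193 with a library left out, and the calls held without WT replicate 1 or 3 or sg5 replicate 1 for *Cdh1*, without any 1 WT library or sg5 replicate 1 for *Cdhr1*, and without WT replicate 3, sg5 replicate 3 or sg6 replicate 1 for *Pcdh9*.

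The extracellular matrix showed single genes in both directions. *Efemp1*, a fibulin of elastic fibres, was at 0.196, 0.201 and 0.204 CPM in sg5, at 8.43, 16.1 and 17.4 CPM in sg6 and at 50.4, 84.9 and 109 CPM in WT, so that both clones were below WT and sg5 the further (-6.12 ± 0.41, edgeR adjusted p = 4.27e-05). *Mfap5*, a microfibril protein, was at 21.7, 12 and 10.9 CPM in sg6 and between 0.851 and 2.48 CPM in every sg5 and WT library. Of 59 matrix glycoproteins, 2 were higher (*Fbn2* and *Fbln1*, 3.39%) and 3 lower (*Efemp1*, *Mfap5* and *Tnn*, 5.08%). Over all genes tested the shares were 1.31% and 1.22%. Of 34 collagens, *Col8a1*, *Col8a2* and *Col15a1* were higher in sg5 (8.82%) and *Col18a1*, the source of endostatin, was lower (2.94%), with a median of -0.06. *Col18a1* was at 3.59, 5.33 and 5.35 CPM in sg5 against 25.0, 41.9 and 41.1 CPM in sg6 and 44.8, 47.1 and 61.0 CPM in WT. *Col8a2*, a short-chain collagen, was at 62.9, 52.7 and 43.0 CPM in sg5, against 22.2, 15.7 and 11 CPM in sg6 and 7.72, 6.10 and 4.87 CPM in WT, above WT in both clones. *Itga11*, a collagen-binding integrin, followed the same order: 18.2, 19.9 and 17.1 CPM in sg5, compared with 3.15, 3.53 and 2.22 CPM in sg6 and 0.454, 0.389 and 0.200 CPM in WT (2.63 ± 0.22, edgeR adjusted p = 0.000178). Of 53 matrix proteases and their inhibitors, *Adamts9* was higher (1.89%) and *Adam23* and *Adamts2* were lower (3.77%). The calls of *Col8a1*, *Fbln1*, *Tnn* and *Adam23* did not hold without each library in turn (adjusted p up to 0.0971, 0.172, 0.0846 and 0.0536). For *Adam23* the library was sg5 replicate 3. For *Col8a1* they were sg5 replicates 1 and 2 and sg6 replicate 2. For *Tnn* they were sg5 replicates 2 and 3 and sg6 replicates 1 and 3. The log2 fold change of *Tnn* was -1.99 in polyA and 0.26 in rRNA-depleted libraries, where it was not called. *Fbln1* held without WT replicate 1 or 3.

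Hox calls were all in the C cluster and all lower in sg5. Of 22 autosomal Hox genes tested, 4 were lower in sg5 (18.2%, beside 1.22% of all genes tested) and none was higher. Of the 4, 2 were called in every fit that left out a library, while the list as a whole had a median of 0.03. *Hoxc13* was at 0.0126, 0.0436 and 0.0432 CPM in sg5 (2, 10 and 7 counts), at 2.78, 2.46 and 2.13 CPM in sg6 and at 3.25, 1.72 and 1.29 CPM in WT (-6.12 ± 0.47, edgeR adjusted p = 9.89e-05). *Hoxc10* had 0, 1 and 0 counts in sg5, 8, 11 and 5 in sg6 and 17, 49 and 30 in WT, and the ratio of sg6 to sg5 was 70.9 with a 95% counting interval of 11.6 to 2915. *Hoxc6* had 0, 1 and 0 counts in sg5 against 2, 7 and 3 in sg6, a ratio of 35.4 (5.24 to 1515), and 108, 202 and 119 in WT, so sg6 too was far below WT. *Hoxc5* had no count in sg5 and 2, 3 and 3 in sg6, which puts sg6 at least 2.59-fold higher against a floor of 3 counts per library. The non-coding RNA *Hotair*, transcribed between *Hoxc11* and *Hoxc12* and named after its values were seen, had 0, 0 and 3 counts in sg5 and 9, 14 and 3 in sg6, and its call was lost without sg5 replicate 1 or 2 or sg6 replicate 1 or 2 (adjusted p up to 0.114). These genes lie together on chromosome 15 (GRCm38.p6), from *Hoxc13* at 102921131 to the end of *Hoxc5* at 103017429. In the same cluster, *Hoxc8* was at 0.196, 0.127 and 0.228 CPM in sg5 and 0.207, 0.193 and 0.266 CPM in sg6 (adjusted p = 0.744), and *Hoxc4* and *Hoxc9* did not pass either (adjusted p = 0.677 and 0.0750). The *Hoxc6* and *Hoxc5* calls passed in 5 and 1 of the 9 fits that left out a library, with adjusted p up to 0.101 and 0.132. *Hoxc6* was lost without any sg5 library or sg6 replicate 2, and *Hoxc5* passed only without WT replicate 1. The counting of strand is not stated in the sources used here, so reads of *Hotair* and of transcripts on the other strand cannot be told apart.

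Of 131 other developmental transcription factors, 5 were higher and 3 lower in sg5 (3.82% and 2.29%, beside 1.31% and 1.22% of all genes tested). All 8 kept their call without each library in turn. *Zic5*, a zinc finger factor of the neural crest, was at 1.23, 1.31 and 1.47 CPM in sg5, against 0.0296, 0.0803 and 0 CPM in sg6 and 0.384, 0.229 and 0.222 CPM in WT, with the clones on opposite sides of WT. *Six3*, a factor of eye and forebrain development, was at 2.44, 2.03 and 2.20 CPM in sg5 and did not exceed 0.459 CPM in sg6 or WT. The Hedgehog effector *Gli2* and the limb and craniofacial factors *Msx1* and *Tbx1* were higher in sg5 by 2.34, 1.56 and 1.29 on the log2 scale. In sg6 they were called lower than WT, and in sg5 *Gli2* and *Msx1* remained within 1 log2 unit of it. *Sox12* was at 4.10, 6.33 and 4.65 CPM in sg6 against 0.423 to 0.789 CPM in sg5 and 0.524 to 0.778 CPM in WT. *Sox13* and *Ebf2*, a factor of early adipogenic cells, were likewise highest in sg6.

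Some called genes lay side by side. Of 14913 pairs of neighbouring autosomal genes tested, 27 (0.181%) had both genes called, and in 26 of the 27 both went the same way. These pairs hold 51 of the 378 called genes, so most called genes had no called neighbour, and some pairs are overlapping genes. *Zcchc3* lies next to *Sox12* on chromosome 2 (152411956 to 152415044), was named after its values were seen, and had 129, 140 and 130 counts in the sg6 libraries and no count in any sg5 or WT library. Against a floor of 3 counts per library, sg6 was at least 128-fold higher than sg5. *Msx1*, its antisense RNA *Msx1os* and *Cytl1*, which encodes a secreted factor of cartilage, lie side by side on chromosome 5 and were all higher in sg5, though the *Msx1os* call was lost without sg6 replicate 1 or 3 (adjusted p up to 0.0715). *Cytl1* was at 15.4, 8.58 and 8.62 CPM in sg5, compared with 0.784, 0.273 and 0.266 CPM in sg6 and 55.2, 53.4 and 52.3 CPM in WT (4.59 ± 0.39, edgeR adjusted p = 0.000184). *Msx1* and *Msx1os* overlap, and reads of one cannot be told apart from reads of the other without strand. Schlafen genes on chromosome 11, interferon-inducible genes of T cell quiescence and antiviral defence, formed another block. *Slfn3*, *Slfn4* and the adjacent *AI662270* were higher in sg5 by 5.35, 4.26 and 5.45 on the log2 scale. *AI662270* was at 27.8, 31.8 and 29.3 CPM in sg5, 35.6, 37.6 and 36.6 CPM in WT and 0.488, 0.819 and 0.728 CPM in sg6, so sg5 was close to WT and sg6 far below it. In rRNA-depleted libraries it was called as well (4.50). There *Slfn3* had 2, 1 and 2 counts in sg5 and 1, 0 and 0 in sg6, against 79, 62 and 72 in WT. *Slfn4* had no count there in either clone and 12, 3 and 7 in WT. Of the 8 Slfn-block genes tested, a group looked at after its values were seen, 4 were higher in sg5 and none was lower. The fourth, *Slfn10-ps*, passed with all 9 libraries (adjusted p = 0.0290) and without WT replicate 1 or 3 or sg5 replicate 1, and was lost without any of the others (adjusted p up to 0.120). *Slfn3*, *Slfn4* and *Gm13212* have close paralogs, and counts of such genes may be shared between copies.

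Interferon-stimulated genes, the antiviral program that follows sensing of foreign or misplaced nucleic acid, were called in 1 direction. The core of the interferon-stimulated response element, GAAANNGAAA, was sought on both strands in the RefSeq promoters (GRCm38.p6, 250 bases before to 50 after the start). The 4 interferon genes called between the clones are shown because each holds a match, given in capitals and merged where matches overlap.
*Ifih1*, chr2:62646206-62646505, minus strand: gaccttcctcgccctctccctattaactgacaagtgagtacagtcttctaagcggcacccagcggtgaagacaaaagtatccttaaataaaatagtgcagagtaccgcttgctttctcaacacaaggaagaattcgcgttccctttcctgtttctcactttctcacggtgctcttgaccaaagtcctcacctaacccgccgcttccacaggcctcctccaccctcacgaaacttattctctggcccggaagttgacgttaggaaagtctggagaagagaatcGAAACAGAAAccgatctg
*Oas1a*, chr5:120907476-120907775, minus strand: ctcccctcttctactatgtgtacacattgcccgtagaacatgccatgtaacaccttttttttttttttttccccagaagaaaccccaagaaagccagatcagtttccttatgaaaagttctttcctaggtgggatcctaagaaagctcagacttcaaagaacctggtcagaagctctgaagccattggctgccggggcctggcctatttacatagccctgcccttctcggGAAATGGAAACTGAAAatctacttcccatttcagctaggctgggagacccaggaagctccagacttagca
*Trim30a*, chr7:104465144-104465443, minus strand, the first of 2 promoters listed: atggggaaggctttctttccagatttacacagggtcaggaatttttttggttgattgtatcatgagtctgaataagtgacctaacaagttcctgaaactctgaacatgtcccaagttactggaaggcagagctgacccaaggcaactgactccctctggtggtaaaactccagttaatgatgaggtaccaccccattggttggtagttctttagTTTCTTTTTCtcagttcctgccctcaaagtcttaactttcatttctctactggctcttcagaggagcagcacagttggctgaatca
*Bst2*, chr8:71537423-71537722, minus strand: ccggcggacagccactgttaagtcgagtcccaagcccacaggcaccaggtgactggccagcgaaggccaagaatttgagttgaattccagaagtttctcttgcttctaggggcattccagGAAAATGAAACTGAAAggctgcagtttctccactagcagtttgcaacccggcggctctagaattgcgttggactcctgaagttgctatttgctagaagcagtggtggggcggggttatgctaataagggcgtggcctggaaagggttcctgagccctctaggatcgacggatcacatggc
The motif was in the promoter of 1079 of 27025 genes (3.99%) whose promoters were searched, and in 22 of the 36 tested interferon genes that had a promoter in the table. A match is a description of the sequence and not evidence that the site is bound.

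Of 49 interferon response genes tested, these 4 were higher in sg5 (8.16%, beside 1.31% of all genes tested) and none was lower (1.22% of all genes). The median log2 fold change was 0.36, with 36 of 49 above 0, against 7376 of all 14932 genes tested. Against WT, 2 members were called higher and 13 lower in sg5, while none was called higher and 23 lower in sg6. *Ifih1*, the cytosolic RNA sensor MDA5, was at 4, 2.16 and 2.11 CPM in sg5, against 0.178, 0.209 and 0.302 CPM in sg6 and 0.559, 0.584 and 0.623 CPM in WT (3.59 ± 0.33, edgeR adjusted p = 0.000257). It was one of the genes called on opposite sides of WT. *Bst2*, the virus-tethering protein tetherin, was at 16.3, 16.1 and 16.1 CPM in sg5, compared with 6.18, 8.13 and 8.08 CPM in sg6 and 5.90, 6.33 and 9.34 CPM in WT, so that only sg5 was called against WT. *Oas1a*, which senses double-stranded RNA, and *Trim30a*, a TRIM protein, were lower in sg6 than in sg5 and highest in WT, at 1.33 to 1.89 CPM for *Oas1a* and 25.1 to 34.0 CPM for *Trim30a*. In the rRNA-depleted libraries the log2 fold changes of *Ifih1*, *Trim30a*, *Bst2* and *Oas1a* were 3.04, 0.48, 1.03 and -0.70, none of them called, and the median of the list was 0.16. *Sting1*, the adaptor of cytosolic DNA sensing, was at 2.41, 3.96 and 3.10 CPM in sg5, against 1.29, 1.38 and 1.3 CPM in sg6 and 9.98 to 13.9 CPM in WT. Between the clones its log2 fold change was 1.25 in polyA and -0.11 in rRNA-depleted libraries, where it was not called. Of 38 chemokines, cytokines and NF-kB targets, the neutrophil chemokine *Cxcl1* alone was higher (2.63%), and its call was lost without sg5 replicate 3 or sg6 replicate 2 (adjusted p up to 0.0594). *H2-M3* was the single antigen presentation gene called of 20 (5%), also higher in sg5, and was lost without sg5 replicate 2 or 3 (adjusted p up to 0.0629).

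The few calls among complement genes and serpins were all lower in sg5. Of 12 complement genes, *Serping1*, *Cd55* and *Cd59a*, which all restrain complement, were lower in sg5 (25%, beside 1.22% of all genes tested). None was higher, and the median of the list was 0.06. Of 30 serpins, 3 were lower (10%, beside 1.22% of all genes tested) and none was higher. Of the 30, 25 had a negative log2 fold change, with a median of -0.53 in polyA and -0.82 in rRNA-depleted libraries. The 3 called were *Serping1*, counted in both lists, *Serpinb6c* and *Serpina3g*. *Serpinb6c* lies on chromosome 13, whose genes had a median of -0.32, and the serpins were not split by chromosome. *Serping1*, the C1 inhibitor, was at 0.808, 0.907 and 0.530 CPM in sg5, compared with 5.47, 4.93 and 3.68 CPM in sg6 and 1.19, 0.664 and 0.534 CPM in WT, so it was above WT in sg6 alone. *Serpina3g*, by contrast, was below WT in both clones, at 0.208, 0.332 and 0.321 CPM in sg5 and 1.08, 1.01 and 0.746 CPM in sg6 against 9.98 to 19.5 CPM in WT, and its call between the clones was lost without sg6 replicate 2 (adjusted p = 0.0530). *Cd55* and *Cd59a* lost their calls without several libraries (adjusted p up to 0.0884 and 0.117). *Cd55* held without any 1 WT library or sg5 replicate 3, and *Cd59a* without WT replicate 1 or 3 or sg5 replicate 1.

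Zinc finger genes were called about as often as other genes when both directions are pooled, and all their calls were higher in sg5. Of 358 tested genes named Zfp, a family in which most members carry a KRAB repressor domain, 10 were higher in sg5 and none was lower. The share higher was 2.79%, beside 1.31% of all genes tested, and 1.22% of all genes were lower (2.53% in either direction). The median was 0.04, with 210 members above 0 and 148 below. In rRNA-depleted libraries 4 of 338 were higher and none was lower. *Zfp345* was at 6.38, 6.52 and 6.96 CPM in sg5, 6.99, 7.79 and 7.23 CPM in WT and 1.98, 1.86 and 2.06 CPM in sg6, so that sg6 was below WT and sg5 was not called against it (1.75 ± 0.12, edgeR adjusted p = 4.83e-05). *Zfp105* and *Zfp941* also had their lowest level in sg6, and *Zfp810* was above WT in both clones and more so in sg5. Of the 10, 5 kept their call without each library in turn (*Zfp810*, *Zfp941*, *Zfp345*, *Zfp105* and *Zfp583*). *Gm13212*, a predicted gene, had the largest log2 fold change in favour of sg5 among called genes with an average of at least 1 log2 CPM, and was at 7.60, 7 and 7.28 CPM in sg5 and 4.89, 6.88 and 7.61 CPM in WT but had 1, 0 and 2 counts in sg6. The ratio of sg5 to sg6 was 450.3 with a 95% counting interval of 154 to 2185, and such intervals cover counting error only.

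Imprinted genes, which are expressed from the allele of 1 parent, were called in both directions. Of 38 tested, *Ndn* and *Dlk1* were higher in sg5 (5.26%), and *Plagl1* and *Mest* were lower (5.26%), beside 1.31% and 1.22% of all genes tested. *Ndn*, which encodes the growth suppressor necdin, was at 34.7, 26.5 and 28.3 CPM in sg5, against 3.36, 3.44 and 3.14 CPM in sg6 and 9.92, 10.2 and 14.1 CPM in WT, on opposite sides of WT (3.17 ± 0.17, edgeR adjusted p = 1.36e-05). *Plagl1*, a zinc finger factor that controls a network of imprinted genes, was at 0.979, 0.493 and 0.407 CPM in sg5, compared with 7.57, 3.68 and 3.87 CPM in sg6 and 42.1, 35.4 and 49.1 CPM in WT. *Dlk1* was uneven between sg5 libraries (31.4, 6.07 and 5.81 CPM) and at 0.498 to 0.835 CPM in sg6, with WT at 6.65 to 11.5 CPM, and its call was lost without sg6 replicate 2 (adjusted p = 0.0520). *Mest* was uneven in sg6 (20.6, 3.29 and 3.25 CPM), and its call was lost without any 1 of the WT or sg5 libraries (adjusted p up to 0.166). In both genes the high library was replicate 1.

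Enzymes and transporters differed as single genes. Of 63 cytochrome P450, aldehyde dehydrogenase and aldo-keto reductase genes, 2 were higher and 5 lower in sg5. That is 3.17% and 7.94%, beside 1.31% and 1.22% of all genes tested. *Cyp3a13* was at 0.101, 0.0523 and 0.0617 CPM in sg5, against 0.755, 0.643 and 1.44 CPM in sg6 and 1.96 to 2.96 CPM in WT, whereas *Akr1b10*, an aldose reductase relative, was at 17.4, 20.3 and 21.1 CPM in sg5, compared with 5.21, 7.36 and 7.39 CPM in sg6 and 27.2 to 28.1 CPM in WT. *Mgll*, the lipase that frees the last fatty acid from monoglycerides, was above WT in both clones, at 7.54, 11.7 and 13.3 CPM in sg5 and at 40.3, 37.3 and 45.3 CPM in sg6 against 0.311 to 0.721 CPM in WT (-1.92 ± 0.24, edgeR adjusted p = 0.00190). Of 77 channel genes, 3 were higher and 2 lower (3.90% and 2.60%). *Kcnh2*, the potassium channel hERG, was at 2.34, 1.71 and 2.36 CPM in sg5 and 1.68 to 2.74 CPM in WT but at 0.148, 0.273 and 0.231 CPM in sg6. Of 236 solute carriers, 3 were higher and 3 lower (1.27% each way, near the shares of all genes tested), with a median of -0.01. The glutamine transporter *Slc38a1* was at 35.9, 39.9 and 40.3 CPM in sg5, 42.0, 44.8 and 48.5 CPM in WT and 87.9, 84.0 and 90.3 CPM in sg6 (-1.17 ± 0.08, edgeR adjusted p = 5.28e-05). The 34 cholesterol genes held no call. With each library left out in turn, 5 of the 7 enzyme calls, 3 of the 5 channel calls and 3 of the 6 solute carrier calls held. *Aldh1a1* was lost without sg5 replicate 1 or 3 or sg6 replicate 1 or 2, and *Cyp4f14* held only without WT replicate 1 or 3 or sg5 replicate 2. *Cacng7* held only without any 1 WT library or sg5 replicate 3, and *Cacna1h* without WT replicate 1 or 3 or sg5 replicate 1. *Slc2a13* was lost without sg5 replicate 2 or 3 or sg6 replicate 1 or 2, *Slc43a1* held only without any 1 WT library or sg6 replicate 1, and *Slc45a3* fell under the fold threshold without sg6 replicate 1.

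Lists of the lineages that MPCs can enter held few calls each. The counts were 3 of 30 skeletal and cardiac muscle genes, 2 of 29 smooth muscle, 2 of 38 adipogenic, 1 of 21 chondrogenic and 0 of 17 osteogenic genes, and each share but the osteogenic was above the 2.53% of all genes tested. The adipogenic regulators *Pparg* and *Cebpa* were not called between the clones: *Pparg* was at 63.3, 48.9 and 54.4 CPM in sg5 and 50.5, 40.6 and 42.6 CPM in sg6 (0.32 ± 0.17, edgeR adjusted p = 0.399), both above 15.9 to 23.7 CPM in WT, and *Cebpa* was at 19.8, 19.8 and 20.6 CPM in sg5 and 16.8, 19.5 and 20.6 CPM in sg6, against 7.09 to 8.71 CPM in WT. *Fabp4*, the fatty acid carrier of fat cells, was at 12.7, 4.48 and 3.33 CPM in sg5, against 4.93, 1.56 and 1.07 CPM in sg6 and 1.22, 0.652 and 0.334 CPM in WT. The replicate 1 library was highest in each line, and the difference between the clones was 1.43 ± 0.67 (edgeR adjusted p = 0.331) without and 1.5 (adjusted p = 0.00127) with the replicate number as a block. Of 38 adipogenic and lipid storage genes tested, 1 was higher (*Zfp467*) and 1 lower (*Mgll*), and the *Zfp467* call held without WT replicate 1 or 3 only (adjusted p up to 0.143 otherwise). The progenitor genes *Etv1* and *Cd34* differed by 0.26 and -0.38 on the log2 scale and were not called (edgeR adjusted p = 0.817 and 0.662), whereas *Etv1* was called lower in sg5 in the rRNA-depleted libraries (-1.59). No osteogenic gene of 17 was called, and *Cytl1* was the only call among 21 chondrogenic genes. In muscle lists, *Myl9* was lower and *Mylk* higher in sg5 among 29 smooth muscle genes, and neither call held without each library in turn (adjusted p up to 0.0850 and 0.141). *Myl9* held without any 1 WT library or sg6 replicate 1, and *Mylk* without WT replicate 1 or 3 or sg5 replicate 3. Among 30 skeletal and cardiac genes, *Bves* was higher and *Tnni3* and *Myod1* were lower. *Bves*, a membrane protein of striated muscle and epithelia, had no count in any WT library and was at 14.2, 17.5 and 16.1 CPM in sg5 and 5.52, 5.21 and 4.37 CPM in sg6, which is at least 233-fold and 73.3-fold above the WT floor of 3 counts per library. *Myod1* had no count in sg5 and a mean of 0.0319 CPM in sg6, under the sg6 floor of 0.0486 CPM. That is at least 1.89-fold above the sg5 floor of 3 counts per library. Its call was lost with the replicate number as a block (adjusted p = 0.0532) and held only without WT replicate 1 or 3 among the fits that left out a library.

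Some lists held a small shift shared by many members and few or no calls. Of 57 cell cycle and DNA replication genes, 53 had a positive log2 fold change (median 0.34) and none was called, and in the rRNA-depleted libraries the median was -0.17. Of 27 integrated stress response and amino acid synthesis genes, 23 were negative (median -0.22, and -0.30 in rRNA-depleted libraries), again with no call. Of 37 replication-dependent histone genes, whose mRNAs mostly end in a stem-loop in place of a poly(A) tail, 36 were negative. The median was -0.83, against -0.12 in rRNA-depleted libraries, and 3 were called lower (8.11%, beside 1.22% of all genes tested). In polyA, 31 of these histone genes lie on chromosome 13, with a median of -0.85, and the 6 on other autosomes had a median of -0.24. The 3 called, *H2ac4*, *H4c17* and *H4c9*, are on chromosome 13 and each lost its call in at least 1 fit that left out a library (adjusted p up to 0.138, 0.0639 and 0.169). *H4c17* was lost without sg5 replicate 2 or 3. *H2ac4* held without WT replicate 1 or 3 or sg5 replicate 3, and *H4c9* without WT replicate 2 or 3. Centred on their chromosome's median, *H4c17* and *H4c9* no longer passed a log2 fold change of 1. Over all 50 lists, 58 distinct members were higher and 48 lower of 2084 tested. Over all autosomal genes, 196 were higher and 182 lower of 14932 tested (1.31% and 1.22%). The lists were chosen with earlier results of these data known. Of the 50 lists, 15 held no call, among them hypoxia, unfolded protein response, proteoglycan and H3K9 methylation genes.

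The chromosomes did not move alike. Genes on chromosome 13 had a median log2 fold change of -0.32 between sg5 and sg6, with 83.6% of its 593 genes lower in sg5 by any amount, against 49.2% on the other autosomes. Against WT the median was -0.06 in sg5 and 0.24 in sg6, and between the clones in rRNA-depleted libraries it was -0.26. All 11 windows of 10 Mb on chromosome 13 with at least 20 genes had a median between -0.44 and -0.28 in polyA. The 207 such windows on other autosomes lay between -0.20 and 0.19. In rRNA-depleted libraries the ranges overlapped, at -0.40 to -0.17 on chromosome 13 and -0.33 to 0.26 on the other autosomes. The polyA median was -0.12 on chromosome 15, -0.09 on chromosome 11 and 0.11 on chromosome 5, and within 0.07 of 0 on each of the others. In rRNA-depleted libraries it was -0.16 on chromosome 15, -0.18 on chromosome 11 and 0.07 on chromosome 5. The share of genes called lower in sg5 was 2.92% on chromosome 15, 2.45% on chromosome 10 and 2.02% on chromosome 13, and the share called higher was 2.33% on chromosome 5. On chromosome 10, 13 genes before 60 Mb (5.56% of those tested there), among them *Rspo3*, *Perp* and *Plagl1*, were lower in sg5 and 2 were higher. The median of that stretch was near 0. Beyond 60 Mb, 6 were lower and 6 higher of 540 tested. This boundary was not set in advance, so the share before it carries no test. Centring each gene on its chromosome's median kept 364 of the 378 calls. Copy number was not measured here, and its part in these values was not tested.

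**Figure D4:**
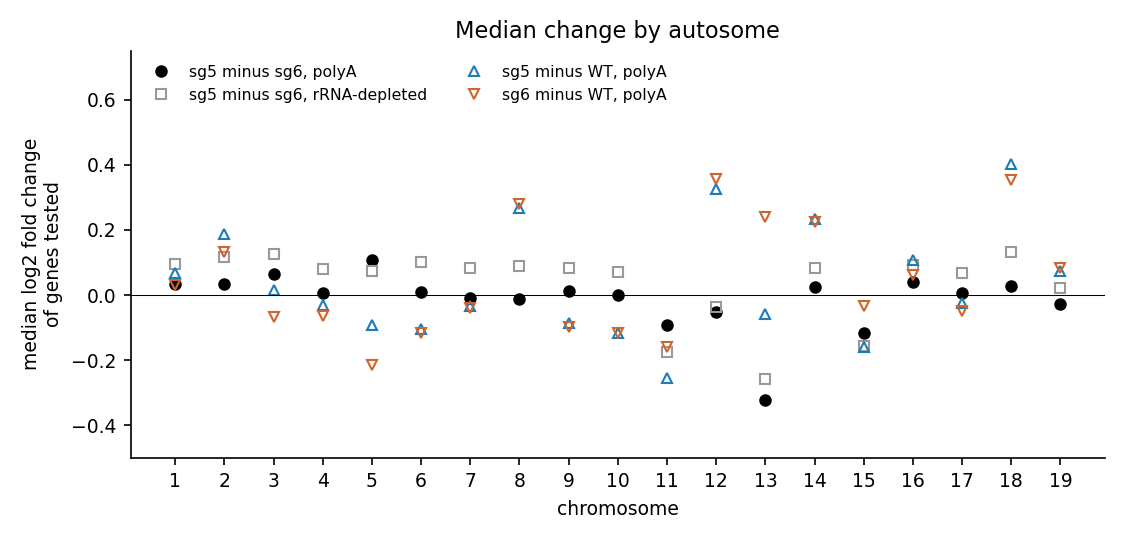
Points are the median log2 fold change (y axis) of the genes tested on each autosome (x axis), for sg5 over sg6 in polyA and rRNA-depleted libraries and for each clone over WT in polyA. Chromosome 13 stands at -0.32 between the clones in polyA and at -0.26 in rRNA-depleted libraries, with sg6 above WT and sg5 near it.

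The rRNA-depleted libraries of the same clones, prepared and counted separately, gave a second readout. Of the 378 genes, 294 were tested there, and 114 (38.8%) were called in the same direction and none in the opposite one. The background in those libraries was 1.42% of the autosomal genes tested there (0.522% higher and 0.896% lower), and 1.44% of the 12489 tested in both kinds of library (0.536% higher and 0.905% lower). The sign was the same for 279 of the 294 genes (94.9%), against 62.8% of all genes tested in both. Genes higher in sg5 in polyA had a median of 1.58 there and 1.65 in polyA, and genes lower had -1.77 and -1.72. *Thy1* (-8.25), *Stmn2* (-7.11), *Negr1* (4.77), *Epha4* (5.63), *Hgf* (2.99), *Ndn* (3.23), *Rspo3* (-4.88) and *Efemp1* (-10.01) were all called there, while *Dlk1* (1.85), *Slfn3* (2.03) and *Hoxc13* (-4.59) were not. In turn, 180 autosomal genes were called in rRNA-depleted libraries and tested in polyA, and 63.3% of them were called in polyA in the same direction. The rRNA-depleted libraries were shallower, with totals of 20135336 to 33187136, and 0 genes called the opposite way is a count over the 294 genes tested in both.

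**Figure D5:**
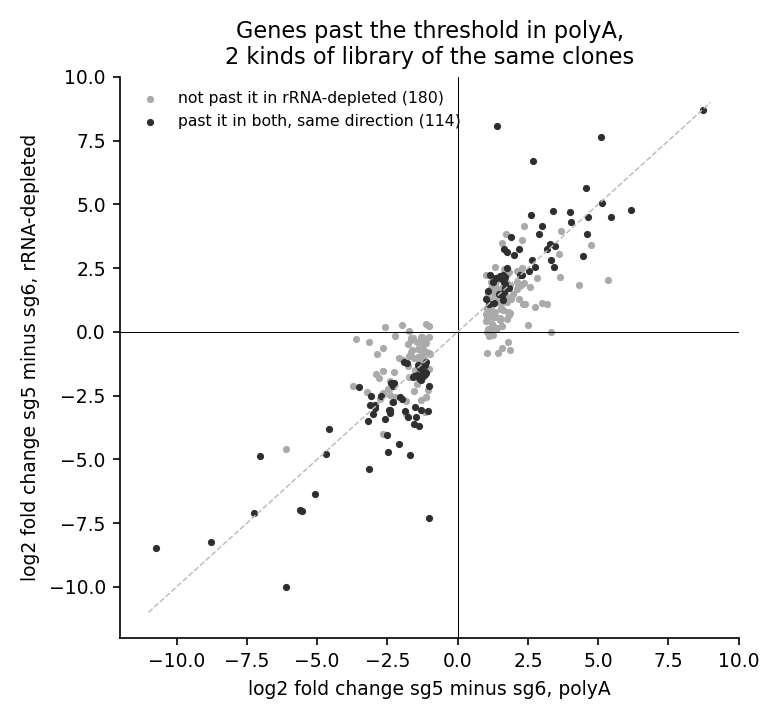
Each point is 1 of the 294 genes called in polyA and tested in rRNA-depleted libraries, placed by its log2 fold change of sg5 over sg6 in polyA (x axis) and in rRNA-depleted libraries (y axis), with the dashed line at equality. The 114 genes called in both are dark, and 279 of the 294 points have the same sign on both axes.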

How the data were processed

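Libraries were grouped by the sample labels, and columns were matched by name. For polyA, the authors deposited estimated counts per gene, made with Rfastp, Salmon (0.8.2 in the submitters' processing notes) and tximport on mm10 known genes. The deposited expected counts are whole numbers without normalization. For rRNA-depleted RNA the authors deposited raw read counts of genes and transposon loci from STAR and TElocal (mm10), with reads of several alignments shared out. Genes were matched by Entrez ID to RefSeq (GRCm38.p6, 24045 of 24100).

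The test was edgeR 4.0.16 (R 4.3.3), with filterByExpr (minimum count 10), TMM, 9 libraries of a kind and 3 groups per fit, a log2 fold change beyond 1 and a Benjamini-Hochberg adjusted p below 0.05 over all genes tested. CPM are counts over TMM-scaled totals, not per length, so levels are compared within a gene. Genes and lists were chosen with earlier results of these data known. Named genes are the 15 highest and 15 lowest called (average log2 CPM of at least 1, no overlap), called list members (at most 8 a list), 8 genes opposite against WT, *Atrx* and 5 genes of the paper, with others said to be chosen after seeing values.

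Library pairs within a line differed beyond sampling noise. Same-numbered libraries of the clones deviated together (Pearson r 0.336, 0.277 and 0.373 over genes), a hint from the data, so a fit with the replicate block is given. Alternatives were DESeq2 1.42.0, other size factors, filters, thresholds, thinning to 27544833 counts, 6 libraries, chromosome centring and leaving out each library. On simulated counts of 15279 genes for this comparison, edgeR found 188 of 200 changed genes with 5 false calls, and DESeq2 185 with 11.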

Additional observations from a re-analysis of the deposited data

Results flagged for a closer look

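In 15 genes the difference from WT went in opposite directions in the clones, each past the threshold against WT, and the difference between the clones passed the test as well. On the log2 scale, sg5 minus sg6, the 9 genes above WT in sg5 and below it in sg6 were *Zic5* (5.11), *Epha4* (4.55), *Hgf* (4.46), *Ifih1* (3.59), *Scrn1* (3.43), *Cntnap5b* (3.38), *Ndn* (3.17), *Ptgis* (2.75) and *Krba1* (2.28). The 6 below WT in sg5 and above it in sg6 were *Klhl29* (-2.42), *Scamp5* (-2.94), *Pianp* (-4.57), *Pdlim1* (-5.54), *Fsd1* (-7.10) and *Thy1* (-8.76). *Ptgis*, prostacyclin synthase, was at 23.7, 31.1 and 30.0 CPM in sg5, 12.2, 12.6 and 14.3 CPM in WT and 3.52, 4.77 and 4.26 CPM in sg6. *Scrn1*, *Cntnap5b*, *Ptgis*, *Krba1* and *Klhl29* are outside the rule for named genes and were named after their values were seen. Groups of 3 libraries were not screened for outliers.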

How the results depend on the processing

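The counts of 196 genes higher and 182 lower in sg5 stayed within 1.5 times under DESeq2, median-of-ratios size factors, no filter on low counts, the 6 clone libraries alone, the replicate block, thinning and chromosome centring. With at least 50 counts on average, 119 genes were lower, since fewer genes were tested. With glmTreat, which tests for a change larger than 1 on the log2 scale, 61 genes were higher and 65 lower, and a stricter threshold (2 on that scale, adjusted p under 0.01) gave 57 and 65. For the position of WT, glmTreat gave 32 genes for sg5 alone, 60 for sg6 alone, 17 for both in the same direction, 1 for opposite directions and 16 for neither, the stricter threshold gave 28, 58, 13, 2 and 21, DESeq2 gave 68 for neither, and thinning gave 72 for both in the same direction. The cause of these last moves was not tested. Of the list members, 15 were higher and 18 lower at the stricter threshold. Leaving out 1 library gave 137 to 211 genes higher, 131 to 187 lower, 52 to 87 for sg5 alone, 99 to 139 for sg6 alone, 72 to 117 for both in the same direction, 11 to 15 for opposite directions, 29 to 55 for neither, and 75 to 107 called the same way and 0 the opposite way in rRNA-depleted libraries. The genes called against WT in sg6 alone outnumbered those in sg5 alone in each of these settings.

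The replicate block gave 482 calls in place of 378 and kept 372 of them, and DESeq2 gave 500 and kept 375. Of the 128 named genes, the block ended the call of *Myod1*, began that of *Fabp4* and changed no other. Thinning ended 24 calls of named genes and leaving out 1 library 3 to 33. *Atrx*, not called, ran from -0.10 to 0.031 with 1 library left out and changed sign without sg5 replicate 2 or sg6 replicate 3 (0.014), and *Etv1* ran from -0.035, without sg5 replicate 2, to 0.77. Depth limits genes near 0 in a clone: a difference from 0 counts is a lower bound, and the sg5 libraries reach lower levels than those of sg6 and WT.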
